A study of Saccharomyces cerevisiae with 42 samples.

Results

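The comparison of late-exponential with early-exponential yeast cultures was followed across the genes that neither contain an intron nor encode a cytosolic ribosomal protein. Of 7127 annotated genes, 363 were set aside because they have an annotated intron of at least 25 bp or encode a ribosomal protein, which left 6764 genes, of which 5845 had enough counts to be tested and 919 did not. The cultures were of BY4742, a haploid strain of budding yeast (Saccharomyces cerevisiae), in YPD (yeast extract, peptone and glucose) at 30 °C. Poly(A)-selected, stranded RNA-seq libraries were 6 labelled 6 h and 24 labelled 0 h, 0 h being the first sampling after dilution of a preculture and a short regrowth. The wider series holds 42 libraries, with 6 each at 2 h and 4 h. By the titles and the methods all libraries are of the same strain and medium. Neither names a transgene, deletion or drug that differs between the times. Marks in the file headers of some 0 h libraries, given below, are not explained there. The methods give a MATa genotype with deletions at HIS3, LEU2, MET15 and URA3. The counts go against part of it. LEU2 had 0 counts in every library, URA3 at most 1 count in any library and LYS2 at most 1. In contrast MET17, the gene also called MET15, had 71.6 to 255 CPM at 6 h and 157 to 405.6 CPM at 0 h. HIS3 had 65.3 to 180.1 CPM at 6 h and 44.2 to 205.7 CPM at 0 h. Its allele is given as his3Δ1, and counts over a gene cannot tell an intact copy from a partly deleted copy. The α-factor gene MF(ALPHA)1 had 975 to 1634 CPM at 6 h and 1058 to 1690 CPM at 0 h, while MFA1, the gene of the a-factor, stayed at or below 2.37 CPM. These libraries therefore hold the transcripts of α cells and of MET17 at both times.

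CPM here means counts of a gene per 1000000 counts of its library after TMM scaling, a scaling that sets the bulk of genes equal between libraries. Total gene counts ran between 8377258 and 31908031 at 6 h (median 16795309) and between 5382002 and 28221337 at 0 h (median 12734619). Because values are shares of the poly(A) RNA of a bulk culture, fewer cells of a type and less RNA per cell cannot be told apart. The labels call the libraries biological replicates but do not say which of them shared a culture or a day, so the p-values measure the spread between these libraries. Culture numbers in the file names hint at a pairing between the times. The reported fit does not use it, and a fit that does is given under the alternatives. In 18 of 24 libraries at 0 h the file header names an alignment marked 35C, 10C or Na200 where the remaining ones have 30C, and all were kept as 0 h. At 0 h each culture number from 1 to 6 occurs once under each of these marks. Whether libraries with the same number came from the same culture is not stated. The fit treats all 24 as separate, so p-values would be too small if they did. A second split cut across the times. In 2 of 6 libraries at 6 h (replicates 2 and 4) and 7 of 24 at 0 h the level of a gene hardly rose with its length (slope of log2 CPM on log2 length from -0.08 to 0.19), whereas in the others the slope was 0.38 to 0.62. Both kinds, called flat and steep below, occur at both times, and genes whose log2 change differed by 1 or more between them are given near the end. The methods report batches in which poly(A) selection differed in efficiency. Whether those batches match the flat and steep kinds was not tested. The 55 genes of the mitochondrial genome are listed at 0 in every library, so the subunits it encodes were not measured here.

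As background, yeast ferments glucose to ethanol even in air and represses the genes for other carbon sources while glucose lasts. The protein kinase Snf1, the repressor Mig1 and the sensors Snf3 and Rgt2 couple the glucose level to transcription. As glucose is used up, cells take up the remainder through transporters of higher affinity, store glycogen and trehalose, and prepare to respire the ethanol they made, a change of metabolism known as the diauxic shift. The transcription factors Msn2 and Msn4 act on the stress response element (STRE), Cat8 and Adr1 on genes for non-fermentable carbon, and Hap4 with its CCAAT-binding partners on respiratory genes.

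By the quasi-likelihood test of edgeR, with p-values adjusted after Benjamini and Hochberg over all 6163 tested genes, 1401 of the 5845 genes rose and 1002 fell at 6 h relative to 0 h at an adjusted p under 0.05, or 23.97% and 17.14%. Over all tested genes, ribosomal protein and intron genes included, the shares were 23.3% higher and 17.5% lower. A change of at least 2-fold was met by 354 risen and 119 fallen genes, against 5.94% and 1.98% of all tested genes. At least 4-fold changes numbered 84 rises and 20 falls, and at least 8-fold changes 31 and 2. In 188 genes every 6 h library lay above every 0 h library and in 105 every one lay below, where all tested genes gave 3.16% and 1.75%. The median log2 change of the 5845 genes was 0.04. With library totals in place of TMM the median of all tested genes moved up by 0.11 and the calls became 1732 higher and 645 lower, so small falls in what follows are relative to that centre. Within the steep libraries 1729 genes rose and 1451 fell, and within the flat ones 813 and 477. Against only the 6 libraries at 0 h marked 30C in the header the calls numbered 592 and 364. The plot of change against level shows that large rises were more frequent than large falls and spread over a wide range of levels. Of 59 gene lists written for yeast pathways, described below by how many of their measured members rose or fell, 2082 tested genes were members of at least 1, and 1329 of the called genes were in none. The counts of each list stand beside the 23.3% higher and 17.5% lower of all tested genes.

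**Figure D1:**
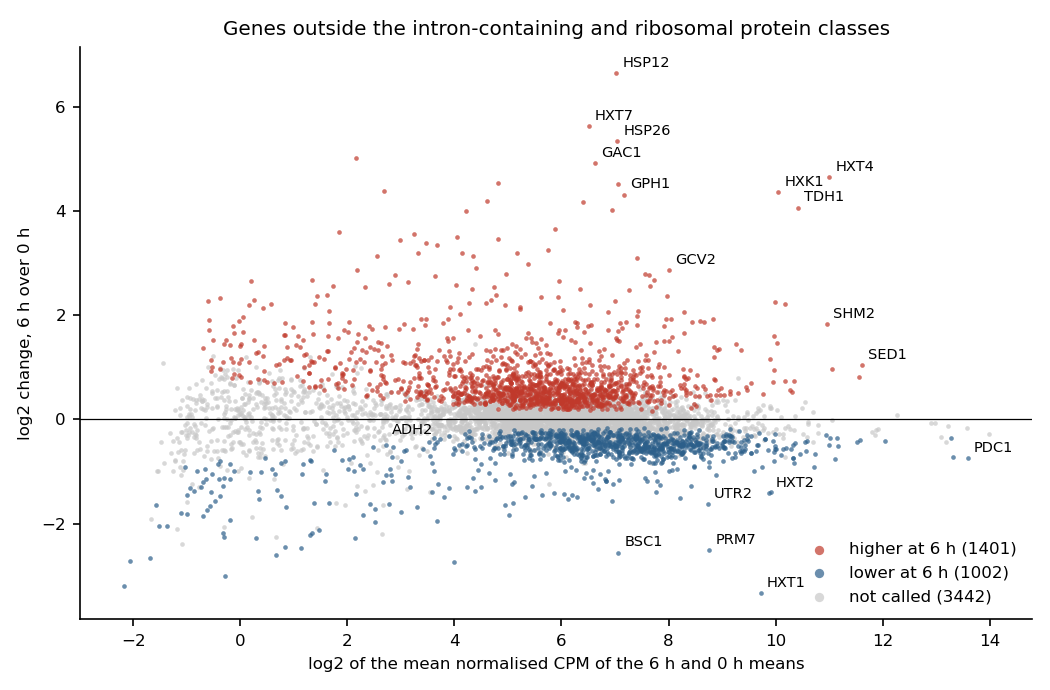
Change at 6 h relative to 0 h against level for the 5845 tested genes outside the intron-containing and ribosomal protein classes, with the log2 change (6 h over 0 h) on the vertical axis and the log2 of the mean CPM, taken over the means of 6 h and 0 h, on the horizontal axis. Each point is a gene, red where higher, blue where lower and grey where not called. The 1401 genes that rose lie above 0 and the 1002 that fell lie below 0, and rises of at least 8-fold number 31 against 2 such falls.

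Transcript levels of the hexose carriers changed in both directions. Among 20 measured genes of hexose transport and glucose sensing, 10 rose and 3 fell, with a median log2 change of 0.54. HXT1 (YHR094C, chromosome VIII, 290913 to 292625), a low-affinity carrier used at high glucose, had 69.5, 263, 149, 178, 63.1 and 194 CPM in replicates 1 to 6 at 6 h, against 737 to 2225 CPM at 0 h (median 1560.2). No 6 h library reached the lowest 0 h library, and the gene fell by 10.1-fold (log2 change -3.33 ± 0.25, adjusted p = 3.1e-12, where ± on the log2 scale is the standard error throughout). HXT2, a carrier of higher affinity, also fell, with 291 to 775 CPM at 6 h (median 483.2), against 691 to 2499.9 CPM at 0 h (median 1276) (log2 change -1.41 ± 0.22, adjusted p = 4.3e-06). In 5 of the 6 libraries at 6 h it was below every 0 h library. HXT3, another low-affinity carrier, had 2849.7 to 4585 CPM at 6 h (median 3230.4), against 2326 to 5773 CPM at 0 h (median 3878), and its log2 change of -0.19 did not pass the test (adjusted p = 0.32).

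The carriers that rose were led by HXT7, HXT4, HXT6 and HXT5, and HXT14, GAL2 and HXT13 followed with log2 changes of 1.37, 1.24 and 0.88. HXT4 (YHR092C, chromosome VIII, 287081 to 288811) had 5139, 2921, 4190.3, 2987, 4645 and 3869.6 CPM in replicates 1 to 6 at 6 h, against 81.2 to 302 CPM at 0 h (median 146), and each 6 h library exceeded the highest 0 h library. Its mean was 25.1-fold higher (log2 change 4.65 ± 0.17, adjusted p = 3.9e-20). HXT7, a high-affinity carrier, had 73.9, 657, 107, 72.1, 120.7 and 39.6 CPM in replicates 1 to 6 at 6 h, against 0.890 to 7.72 CPM at 0 h (median 3.31) (log2 change 5.63 ± 0.33, adjusted p = 1.0e-14). Every 6 h library was above all 0 h libraries, but replicate 2 stood far above the rest, and without it the log2 change was 4.52. HXT6 is 99.8% identical to HXT7, so that only reads over the few differences were counted, and it rose as well (median 26.5 CPM at 6 h against 3.98 CPM at 0 h, log2 change 2.91). HXT5, a carrier of slowly growing cells, had 4.34 to 12.1 CPM at 6 h (median 7.73), against 0.273 to 2.08 CPM at 0 h (median 1.11) (log2 change 2.87 ± 0.24, adjusted p = 3.7e-11). MTH1, a corepressor of the HXT genes with Rgt1, had 263 to 445 CPM at 6 h (median 304), against 18.7 to 79.3 CPM at 0 h (median 49.1) and its groups did not overlap (log2 change 2.80 ± 0.20, adjusted p = 1.1e-12). SNF3, the sensor for low glucose, rose (median 83.0 CPM at 6 h against 43.7 CPM at 0 h, log2 change 0.95) and RGT2, the sensor for high glucose, fell (median 33.4 CPM at 6 h against 42.7 CPM at 0 h, log2 change -0.43).

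The enzymes that phosphorylate the sugar after entry changed in opposite directions. HXK1, the hexokinase of derepressed cells (YFR053C, chromosome VI, 253592 to 255049), had 2383, 2270.1, 2265, 1597, 2670 and 928 CPM in replicates 1 to 6 at 6 h, against 34.3 to 200.7 CPM at 0 h (median 81.1) (log2 change 4.36 ± 0.25, adjusted p = 4.9e-15), with no overlap. HXK2, the hexokinase of growth on glucose, had 1496 to 1964 CPM at 6 h (median 1588), against 2069 to 3579 CPM at 0 h (median 2752) (log2 change -0.76 ± 0.10, adjusted p = 1.9e-07), and all 6 h libraries were below all 0 h libraries. Glucokinase GLK1 rose 4.76-fold, with 773 to 2779.6 CPM at 6 h (median 1603), against 77.8 to 973 CPM at 0 h (median 312) (adjusted p = 1.1e-05), and 5 of its 6 h libraries exceeded every 0 h library. YFR052C-A, a short reading frame that overlaps HXK1 on the same strand, also rose (median 54.5 CPM at 6 h against 2.21 CPM at 0 h, log2 change 4.53), and its reads cannot be told apart from HXK1 transcripts. The plot of leading genes shows these shifts library by library.

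**Figure D2:**
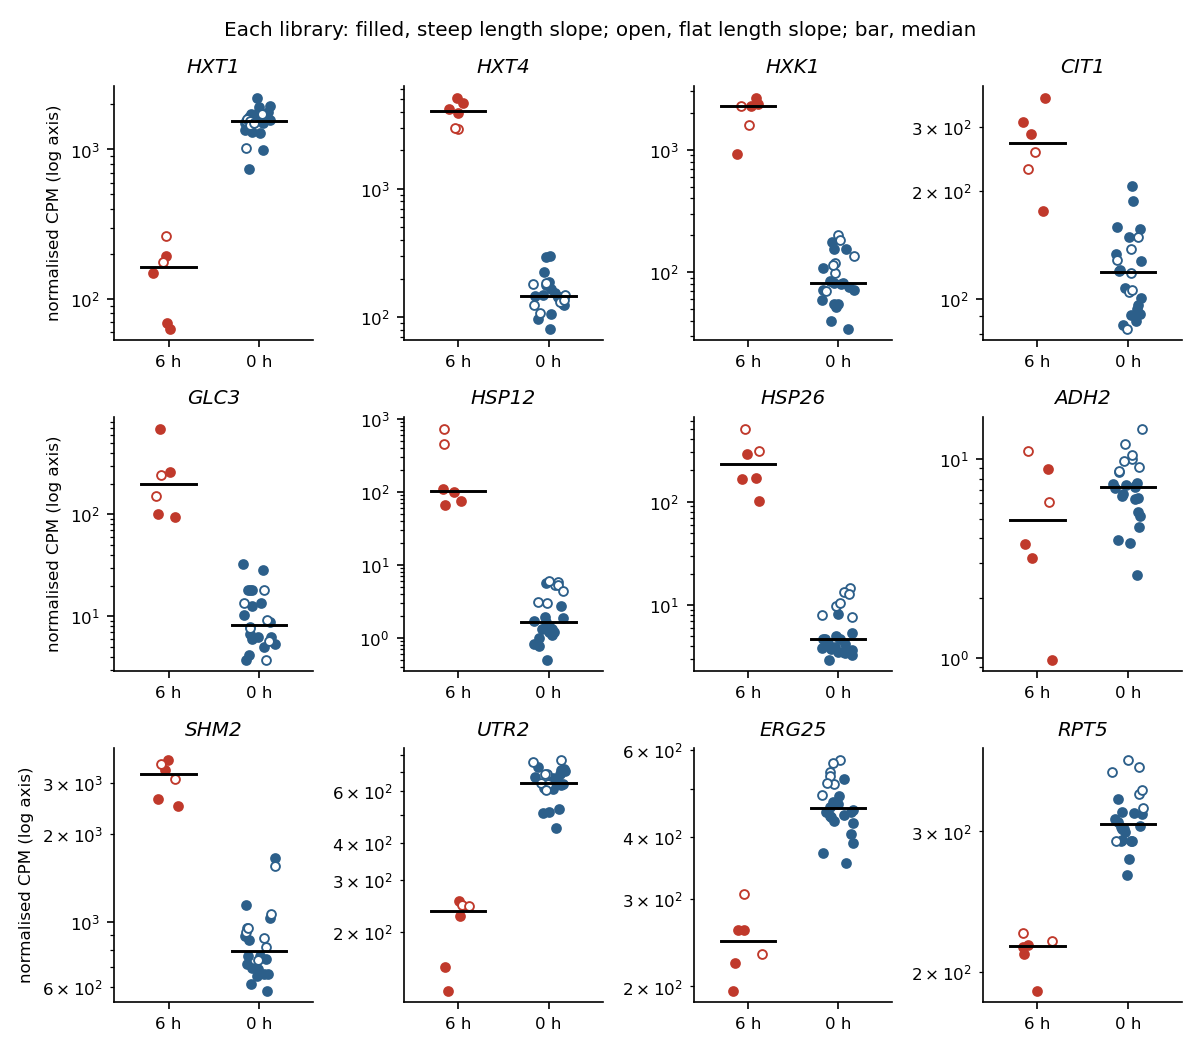
CPM on a log axis in each library of 6 h (left of each pair) and 0 h for leading genes of hexose uptake, storage, stress, respiration, one-carbon metabolism and growth, with filled markers for steep and open markers for flat libraries and a bar at the median. HXT1 stayed at or below 263 CPM in all 6 h libraries and at or above 737 CPM in all 0 h libraries, whereas HXT4 and HXK1 were separated in the opposite direction.

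Glycolysis itself moved little as a whole. Of 22 measured members 8 rose and 7 fell (median log2 change -0.12), and the list took 7.48 to 10.9% of counts at 6 h (median 7.92%), against 6.27 to 12.1% at 0 h (median 8.49%). Isozymes went in different directions. TDH1, the minor glyceraldehyde-3-phosphate dehydrogenase, had 1446 to 3217 CPM at 6 h (median 2823), against 51.3 to 457 CPM at 0 h (median 120.7) (log2 change 4.07 ± 0.31, adjusted p = 3.5e-12), with no overlap. TDH3, the main form, had 10816 to 22591 CPM at 6 h (median 11863), against 10756 to 31964 CPM at 0 h (median 16206), and its log2 change of -0.28 did not pass the test (adjusted p = 0.29). TDH2, another form, was lower by a log2 change of -0.41 (adjusted p = 0.0445). That call was lost without 6 h replicate 1, 3, 5 or 6, and without any of many single 0 h libraries, with adjusted p between 0.050 and 0.13. Of the enolases, ENO1 rose (median 3775 CPM at 6 h against 2303 CPM at 0 h, log2 change 0.81, adjusted p = 0.0070) and ENO2 fell (median 6572 CPM at 6 h against 10759 CPM at 0 h, log2 change -0.73, adjusted p = 0.0084). The TDH and ENO genes are each 90.2% or more identical to a sister gene and can lose reads to it. PDC1, the main pyruvate decarboxylase, which was counted with fermentation, had 7829 to 11628 CPM at 6 h (median 9028), against 11096 to 22446 CPM at 0 h (median 14508) (log2 change -0.74 ± 0.13, adjusted p = 3.5e-05), below every 0 h library in 5 of 6. CDC19, pyruvate kinase, was lower by a log2 change of -0.36 (adjusted p = 0.037), a call that was lost without 6 h replicate 1, 3, 5 or 6 or 0 h replicate 5, 8, 16, 17, 19 or 23, with adjusted p between 0.051 and 0.13. ADH1, the fermentative alcohol dehydrogenase, did not pass the test (median 7589.7 CPM at 6 h against 9088 CPM at 0 h, log2 change -0.12, adjusted p = 0.65).

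The genes that oxidise ethanol and acetate differed among themselves. In the list of fermentation and ethanol or acetate oxidation, 6 of 16 measured members rose and 3 fell (median log2 change 0.19). ADH2, the alcohol dehydrogenase that consumes ethanol and a classical glucose-repressed gene, had 0.974, 11.0, 8.96, 6.13, 3.74 and 3.20 CPM in replicates 1 to 6 at 6 h, against 2.61 to 14.3 CPM at 0 h (median 7.29). Replicate 1 lay below the lowest 0 h library and the other 5 within the 0 h range, with a log2 change of -0.40 ± 0.30 (adjusted p = 0.31). ALD4, the mitochondrial aldehyde dehydrogenase, did rise, with 115 to 421.4 CPM at 6 h (median 233), against 31.1 to 130.2 CPM at 0 h (median 70.7) (log2 change 1.81 ± 0.21, adjusted p = 2.9e-08). ACS1, the acetyl-CoA synthetase of derepressed cells, had 15.1 to 28.2 CPM at 6 h (median 20.7), against 6.15 to 14.5 CPM at 0 h (median 10.3) (log2 change 1.06 ± 0.12, adjusted p = 2.4e-08), without overlap.

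Of 16 measured genes of gluconeogenesis and the glyoxylate cycle, 10 rose and 0 fell, with a median log2 change of 0.64, and 5 rose at least 2-fold. FBP1, fructose-1,6-bisphosphatase, had 4.11, 10.4, 6.07, 4.47, 3.35 and 3.60 CPM in replicates 1 to 6 at 6 h, against 0.498 to 3.33 CPM at 0 h (median 1.93) (log2 change 1.56 ± 0.26, adjusted p = 1.1e-05), and PCK1, phosphoenolpyruvate carboxykinase, 10.8 to 17.6 CPM at 6 h (median 12.9), against 5.44 to 11.6 CPM at 0 h (median 9.13) (log2 change 0.67 ± 0.14, adjusted p = 2.1e-04). FBP1 was separated between the times and PCK1 was not. In the glyoxylate cycle, which makes sugar precursors from acetyl units, MLS1 (malate synthase) rose 4.24-fold with 3.71 to 9.25 CPM at 6 h (median 4.44), against 0.546 to 1.96 CPM at 0 h (median 1.20) (adjusted p = 2.2e-09), whereas ICL1 (isocitrate lyase) rose 1.66-fold with 86.9 to 140.1 CPM at 6 h (median 122), against 46.7 to 104 CPM at 0 h (median 68.8) (adjusted p = 2.0e-05). IDP2, the cytosolic isocitrate dehydrogenase that makes NADPH, rose 3.04-fold (adjusted p = 5.9e-11). SFC1, the mitochondrial succinate-fumarate carrier, stayed at 0.614 to 3.47 CPM at 6 h (median 1.02), against 0 to 0.926 CPM at 0 h (median 0.464) although it passed the test (log2 change 1.65 ± 0.36, adjusted p = 3.8e-04). Levels of MLS1, FBP1 and SFC1 at 6 h were thus a few CPM.

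Uptake and mitochondrial entry of other carbon sources showed a similar count, 15 risen and 1 fallen of 20 (median log2 change 0.98). JEN1, the lactate and pyruvate permease, had 8.12 to 17.0 CPM at 6 h (median 11.9), against 2.19 to 5.14 CPM at 0 h (median 3.69) (log2 change 1.74 ± 0.15, adjusted p = 3.0e-11). CYB2, the L-lactate dehydrogenase of the intermembrane space, had 11.0 to 24.8 CPM at 6 h (median 18.1), against 1.501 to 6.66 CPM at 0 h (median 4.71) (log2 change 1.92 ± 0.17, adjusted p = 1.1e-10). In both, every 6 h library lay above every 0 h library. STL1, the glycerol-proton symporter, had 1.73, 18.9, 1.64, 6.49, 6.42 and 4.29 CPM in replicates 1 to 6 at 6 h, against 0 to 2.22 CPM at 0 h (median 0.530) (log2 change 3.60 ± 0.35, adjusted p = 5.7e-10), and replicate 2 carried part of this, since the log2 change without it was 2.94. SUC2, invertase, which splits sucrose outside the cell, rose by a smaller step, with 199 to 367 CPM at 6 h (median 263), against 132 to 219.6 CPM at 0 h (median 175) (log2 change 0.63 ± 0.11, adjusted p = 1.6e-05). Outside that list, the membrane proteins ATO2 and ATO3, linked to ammonium or acetate transport, went apart, ATO2 rising (median 9.93 CPM at 6 h against 3.71 CPM at 0 h, log2 change 1.83) and ATO3 falling (median 59.0 CPM at 6 h against 177 CPM at 0 h, log2 change -1.56, no overlap). MPC3, the subunit of the mitochondrial pyruvate carrier used in respiration, had 76.7 to 554 CPM at 6 h (median 174), against 3.73 to 37.3 CPM at 0 h (median 12.4) (log2 change 4.01 ± 0.32, adjusted p = 9.8e-12).

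For peroxisomal β-oxidation, which breaks down fatty acids, 9 of 16 measured members rose and 0 fell (median log2 change 0.41). POX1, the acyl-CoA oxidase, had 2.53 to 4.38 CPM at 6 h (median 2.80), against 0.324 to 1.81 CPM at 0 h (median 1.08) (log2 change 1.43 ± 0.21, adjusted p = 1.5e-06), POT1, the thiolase, 0.757 to 5.48 CPM at 6 h (median 1.48), against 0 to 2.22 CPM at 0 h (median 0.390) (log2 change 2.13 ± 0.41, adjusted p = 8.9e-05), and FAA2, the peroxisomal acyl-CoA synthetase, 31.2 to 94.4 CPM at 6 h (median 59.5), against 18.7 to 35.0 CPM at 0 h (median 27.2) (log2 change 1.23 ± 0.13, adjusted p = 8.9e-09). POX1 and POT1 thus stayed at single-digit CPM. Of 28 genes of peroxisome biogenesis 11 rose and 1 fell (median 0.19), a count that dropped to 6 risen without 6 h replicate 5. PEX18, a receptor partner for import of the thiolase, had a median of 1.72 CPM at 6 h and 0.543 CPM at 0 h (log2 change 1.52).

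Storage carbohydrate genes were among the most uniform risers. Of 24 measured genes of trehalose and glycogen metabolism 22 rose and 1 fell, with a median log2 change of 1.37, and the list took 0.317 to 1.14% of counts at 6 h (median 0.480%), against 0.124 to 0.337% at 0 h (median 0.168%). GAC1 (YOR178C, chromosome XV, 667860 to 670241), which targets a protein phosphatase to glycogen synthase, had 215, 81.6, 217, 107, 426 and 103 CPM in replicates 1 to 6 at 6 h, against 1.75 to 18.6 CPM at 0 h (median 6.04) (log2 change 4.93 ± 0.28, adjusted p = 4.9e-15). GLC3, the glycogen branching enzyme (YEL011W, chromosome V, 133120 to 135234), had 257, 150.1, 94.7, 245, 693 and 99.9 CPM in replicates 1 to 6 at 6 h, against 3.73 to 32.5 CPM at 0 h (median 8.26) (log2 change 4.52 ± 0.35, adjusted p = 3.9e-12). Without replicate 5, the highest, the log2 change of GLC3 was 3.91. The breakdown enzymes rose too. GPH1, glycogen phosphorylase, had 83.0 to 611 CPM at 6 h (median 217), against 6.15 to 36.8 CPM at 0 h (median 12.4) (log2 change 4.32 ± 0.27, adjusted p = 3.9e-14), and SGA1, a glucoamylase known from sporulation, 6.74 to 43.6 CPM at 6 h (median 14.7), against 0.746 to 3.95 CPM at 0 h (median 1.84) (log2 change 3.19 ± 0.27, adjusted p = 3.0e-11). In GAC1, GLC3, GPH1 and SGA1 every 6 h library was above every 0 h library.

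Glycogen synthase is made from a pair of genes, and both rose, GSY1 with 114 to 972 CPM at 6 h (median 295), against 9.16 to 215 CPM at 0 h (median 30.9) (log2 change 2.68 ± 0.49, adjusted p = 5.0e-05) and GSY2 with 161.4 to 742 CPM at 6 h (median 275), against 26.1 to 118 CPM at 0 h (median 44.4) (log2 change 2.77 ± 0.23, adjusted p = 1.9e-11). GSY1 overlapped between the times and GSY2 did not. PGM2, the phosphoglucomutase that leads into both polymers, rose 5.58-fold (adjusted p = 1.1e-10). On the trehalose side the catalytic subunits TPS1 and TPS2 rose 2.53-fold and 2.61-fold and the regulatory subunit TSL1 8.60-fold, with 196, 186, 309, 206, 851 and 79.8 CPM in replicates 1 to 6 at 6 h, against 10.3 to 147 CPM at 0 h (median 26.3) for TSL1. Its log2 change was 3.11 ± 0.37 (adjusted p = 4.3e-08) and 2.46 without replicate 5. NTH1, the neutral trehalase that degrades trehalose, rose by a log2 change of 0.82 (adjusted p = 1.8e-06). Replicate 5 was the highest of the 6 libraries at 6 h in GLC3, TSL1, GSY1, GSY2 and TPS2.

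The general stress genes, the targets known from many kinds of stress, had the largest median of the 59 lists. Among 55 measured members 51 rose and 0 fell (median log2 change 1.78), 43 rose at least 2-fold, and in 16 the libraries did not overlap. Together they took 0.278 to 0.796% of counts at 6 h (median 0.548%), against 0.137 to 0.298% at 0 h (median 0.195%). Of their members, YNL194C, a membrane protein of the eisosome family, was at or below 0.702 CPM in all 0 h libraries and had 2.12 to 17.5 CPM at 6 h (median 7.13) (log2 change 5.02 ± 0.45, adjusted p = 1.1e-10). Of the heat shock list described below, HSP12, a membrane-associated protein of stressed and stationary cells (YFL014W, chromosome VI, 107256 to 107585), had 66.8, 740.3, 108, 459.5, 100.1 and 74.2 CPM in replicates 1 to 6 at 6 h, against 0.496 to 5.93 CPM at 0 h (median 1.66). Even the lowest 6 h library was above all 0 h libraries, and the log2 change was 6.65 ± 0.39 (adjusted p = 1.3e-14). It was 5.97 without replicate 2, 5.81 within steep and 7.00 within flat libraries. HSP26, a small heat shock protein (YBR072W, chromosome II, 382030 to 382674), had 166, 508, 290, 306, 169.6 and 101.3 CPM in replicates 1 to 6 at 6 h, against 2.95 to 14.5 CPM at 0 h (median 4.69) (log2 change 5.34 ± 0.27, adjusted p = 5.9e-16), a change of 40.5-fold.

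Other general stress genes followed. TMA10, a small ribosome-associated protein, had 39.0 to 449 CPM at 6 h (median 124), against 2.76 to 17.1 CPM at 0 h (median 8.49) (log2 change 4.17 ± 0.31, adjusted p = 2.9e-12, or 3.52 without replicate 2). DDR2, a short protein induced by many stresses (YOL052C-A, chromosome XV, 231570 to 231755), had 19.8, 56.9, 21.8, 32.3, 67.0 and 11.3 CPM in replicates 1 to 6 at 6 h, against 0.267 to 4.08 CPM at 0 h (median 2.16) (log2 change 4.00 ± 0.29, adjusted p = 1.1e-12). Both were separated between the times. CTT1, cytosolic catalase, rose less (log2 change 1.07 ± 0.16, adjusted p = 1.4e-06), with 4 of 6 libraries at 6 h above every 0 h library. The STRE (AGGGG on either strand) stands several times upstream of HSP12 and DDR2, and these stretches, read from the R64 RefSeq genome by coordinates and printed 5′ to 3′ on the strand of the gene, are shown because these genes rose strongly and carry at least 3 matches each. Capitals mark STRE matches, 5 for HSP12, 3 for DDR2 and 3 for GLC3. For HSP12 and GLC3 the stretches reach further upstream than the window counted below. That window leaves out the HSP12 matches at 435, 414 and 377 bases before the start and the GLC3 matches at 374 and 282.
HSP12 (chrVI:106811-107080, plus strand, upstream of the gene): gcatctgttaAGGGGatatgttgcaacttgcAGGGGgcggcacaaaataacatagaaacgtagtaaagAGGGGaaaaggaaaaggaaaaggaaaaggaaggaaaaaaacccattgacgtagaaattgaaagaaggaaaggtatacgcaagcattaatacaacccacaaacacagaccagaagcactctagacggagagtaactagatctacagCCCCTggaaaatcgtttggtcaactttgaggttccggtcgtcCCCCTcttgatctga
DDR2 (chrXV:231916-232013, minus strand, upstream of the gene): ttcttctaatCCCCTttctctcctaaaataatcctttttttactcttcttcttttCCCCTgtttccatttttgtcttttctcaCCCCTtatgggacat
GLC3 (chrV:132736-132921, plus strand, upstream of the gene): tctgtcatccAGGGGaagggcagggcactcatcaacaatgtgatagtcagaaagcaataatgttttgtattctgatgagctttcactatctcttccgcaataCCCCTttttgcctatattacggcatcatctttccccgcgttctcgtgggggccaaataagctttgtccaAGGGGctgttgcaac

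Over the window from 250 bases before to 50 after the annotated start, an STRE was found in 147 of the 354 genes that rose at least 2-fold (41.5%, Wilson 95% interval 36.5 to 46.7%), in 14 of the 119 that fell at least 2-fold (11.8%), and in 1255 of all 5845 tested genes (21.5%). Among the general stress genes 31 of 55 had 1 (56.4%), and among the storage carbohydrate genes 11 of 24 (45.8%). A match is a description of the letters and not of a bound site. The interval treats genes as independent draws, which genes called from the same libraries are not. The shares were not tested against each other. The other sequences searched, on both strands, included the Mig1 core GCGGGG, present in 6.78% of the genes that rose at least 2-fold and 2.53% of all tested genes, and the Adr1 core TTGGGG in 9.61% and 5.87%. The Gis1 sequence TTAGGGAT and the STRE overlap in letters but neither contains the other.

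Chaperone genes split evenly. Of 35 measured heat shock proteins and chaperones 12 rose and 12 fell (median log2 change -0.003), HSP12 and HSP26 among the rises. Among the cytosolic Hsp70 genes SSA4 rose with 196 to 880.2 CPM at 6 h (median 246), against 33.8 to 102 CPM at 0 h (median 52.1) (log2 change 2.56 ± 0.21, adjusted p = 1.7e-11), SSA1 rose with 901 to 3022 CPM at 6 h (median 1311), against 271 to 1069 CPM at 0 h (median 539.8) (log2 change 1.46 ± 0.22, adjusted p = 3.6e-06), and SSA2 fell with 439.9 to 1221 CPM at 6 h (median 695), against 859 to 1915 CPM at 0 h (median 1255) (log2 change -0.81 ± 0.17, adjusted p = 2.9e-04). SSA1 and SSA2 are 96.4% identical and can lose reads to each other. SSA3 rose 1.596-fold. HSC82, the constitutive Hsp90, had 969 to 1470.3 CPM at 6 h (median 1144), against 1690.4 to 2708 CPM at 0 h (median 2174) (log2 change -0.91 ± 0.09, adjusted p = 2.1e-09) and was separated between the times, while the inducible HSP82 did not pass the test (median 350.1 CPM at 6 h against 189.9 CPM at 0 h, log2 change 0.27, adjusted p = 0.57). SSE1, an Hsp110 partner of Hsp70, fell (median 1142 CPM at 6 h against 1541 CPM at 0 h, log2 change -0.45). HSP42, a small heat shock protein, rose with 87.8 to 955 CPM at 6 h (median 318), against 17.7 to 343 CPM at 0 h (median 85.5) (log2 change 1.93 ± 0.49, adjusted p = 0.0019). HSP104, the disaggregase, had 377 to 1576 CPM at 6 h (median 707), against 162 to 1415 CPM at 0 h (median 353) and did not pass the test (adjusted p = 0.084), although it did without 0 h replicate 2 or 9. The heat shock element TTCNNGAA was in the window of 16 of the 35 genes (45.7%) and in 12.8% of all tested genes.

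Nuclear genes of respiration rose in large part, by smaller steps than the stress genes. In the tricarboxylic acid cycle 19 of 24 measured members rose and 0 fell (median log2 change 0.66). CIT1, the mitochondrial citrate synthase, had 176 to 362 CPM at 6 h (median 272), against 82.9 to 206 CPM at 0 h (median 119) (log2 change 1.14 ± 0.15, adjusted p = 3.1e-07). SDH1, the flavoprotein subunit of succinate dehydrogenase, had 104 to 275 CPM at 6 h (median 204), against 42.7 to 87.7 CPM at 0 h (median 63.5) (log2 change 1.69 ± 0.13, adjusted p = 3.9e-12), and LSC2, a subunit of succinyl-CoA ligase, 170.4 to 405 CPM at 6 h (median 221.4), against 62.0 to 153 CPM at 0 h (median 83.6) (log2 change 1.39 ± 0.15, adjusted p = 1.1e-08). SDH1 and LSC2 were separated between the times. For pyruvate dehydrogenase and pyruvate entry 5 of 11 members rose and 0 fell (median 0.26).

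For the respiratory chain 21 of 26 nuclear members rose and 1 fell (median 0.72), and the list took 0.218 to 0.380% of counts at 6 h (median 0.276%), against 0.148 to 0.204% at 0 h (median 0.178%). The ranges of the times did not touch. NDI1, the internal NADH dehydrogenase, had 135 to 296 CPM at 6 h (median 216), against 36.5 to 94.1 CPM at 0 h (median 58.0) (log2 change 1.85 ± 0.14, adjusted p = 5.3e-12), and NDE2, an external one, 9.01 to 24.6 CPM at 6 h (median 12.7), against 0.356 to 2.59 CPM at 0 h (median 1.47) (log2 change 3.44 ± 0.22, adjusted p = 7.4e-14). CYT1, cytochrome c1, had 93.6 to 165 CPM at 6 h (median 138), against 25.6 to 72.3 CPM at 0 h (median 36.9) (log2 change 1.68 ± 0.17, adjusted p = 1.6e-09). Cytochrome c itself is encoded by a pair of genes, of which CYC7 rose 6.79-fold (median 9.87 CPM at 6 h against 1.86 CPM at 0 h, log2 change 2.76) and CYC1 1.67-fold (median 25.6 CPM at 6 h against 15.9 CPM at 0 h, log2 change 0.74). Subunit V of cytochrome oxidase also has a pair of forms. COX5B, known as the form of low oxygen, had 51.8 to 216 CPM at 6 h (median 97.7), against 10.9 to 58.3 CPM at 0 h (median 23.8) (log2 change 2.11 ± 0.25, adjusted p = 4.7e-08), and COX5A had 61.5 to 112 CPM at 6 h (median 79.3), against 45.99 to 85.1 CPM at 0 h (median 62.1) (log2 change 0.38 ± 0.12, adjusted p = 0.0096), a call that was lost without 6 h replicate 2 (adjusted p = 0.067). RefSeq gives COX5B an intron of 88 bp that the deposited annotation does not list, as it does for NSP1 and LDO45, so these 3 genes are counted here although they contain one.

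Of 24 nuclear genes for the ATP synthase and mitochondrial carriers 15 rose and 2 fell (median 0.41). The strongest of them were the inhibitors of the enzyme's reverse reaction, INH1 with 16.0 to 64.8 CPM at 6 h (median 25.7), against 1.78 to 6.18 CPM at 0 h (median 3.17) (log2 change 3.19 ± 0.20, adjusted p = 3.5e-14) and STF1 with 38.6 to 154 CPM at 6 h (median 73.6), against 7.38 to 35.2 CPM at 0 h (median 13.1) (log2 change 2.35 ± 0.25, adjusted p = 6.3e-09), both separated. ATP1, the α subunit, had 320.1 to 446 CPM at 6 h (median 397), against 189 to 309 CPM at 0 h (median 239.9) (log2 change 0.67 ± 0.09, adjusted p = 3.3e-07). The falls were AAC3, an ADP/ATP carrier known from anaerobic growth (median 10.5 CPM at 6 h against 26.6 CPM at 0 h, log2 change -1.29), and POR2, a minor porin (median 20.5 CPM at 6 h against 44.5 CPM at 0 h, log2 change -1.06), both with all 6 h libraries below all 0 h libraries. Among 47 genes of respiratory assembly and coenzyme Q 32 rose and 1 fell (median 0.48), PET494, an activator of mitochondrial translation, with 58.9 to 74.97 CPM at 6 h (median 67.1), against 30.4 to 50.9 CPM at 0 h (median 36.8) and COQ1, the first enzyme of the coenzyme Q tail, with 85.3 to 107 CPM at 6 h (median 98.2), against 54.8 to 74.0 CPM at 0 h (median 62.3). HEM13, of the anaerobic gene list and an oxygen-dependent enzyme of heme synthesis, went the other way (median 111 CPM at 6 h against 313 CPM at 0 h, log2 change -1.39, adjusted p = 8.4e-08).

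The mitochondrial ribosome moved opposite to the cytosolic genes for making ribosomes described below. Of 73 measured genes 60 rose and 0 fell (median 0.43), and the list, which also holds KGD4 of the citric acid cycle, took 0.526 to 0.779% of counts at 6 h (median 0.602%), against 0.358 to 0.489% at 0 h (median 0.418%). MRPS17, of the small subunit, had 85.6 to 105 CPM at 6 h (median 91.9), against 33.0 to 65.0 CPM at 0 h (median 48.5) (log2 change 0.96 ± 0.10, adjusted p = 1.4e-09), and RML2, of the large subunit, 98.1 to 138 CPM at 6 h (median 111), against 60.4 to 83.9 CPM at 0 h (median 72.2) (log2 change 0.65 ± 0.07, adjusted p = 4.8e-09), with no overlap in either. Most genes of mitochondrial protein import were not called, with 3 risen and 1 fallen of 36 (median -0.02). HSP60, the mitochondrial chaperonin, was 1 that rose (median 759.9 CPM at 6 h against 513 CPM at 0 h, log2 change 0.51). The CCAAT letters stood in the window of 19 of 26 respiratory chain genes (73.1%) and of 44.3% of all tested genes.

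The regulators of carbon use changed as well, 17 risen and 3 fallen of 36 (median 0.43). CAT8, activator of gluconeogenic genes, had 64.7, 20.9, 28.5, 23.0, 71.3 and 29.7 CPM in replicates 1 to 6 at 6 h, against 4.603 to 14.7 CPM at 0 h (median 7.84) (log2 change 2.24 ± 0.21, adjusted p = 4.4e-10). HAP4, the activating subunit of the CCAAT-binding complex, had 322 to 713 CPM at 6 h (median 517), against 40.5 to 188 CPM at 0 h (median 120.2) (log2 change 2.07 ± 0.22, adjusted p = 4.9e-09). MSN4 had 150.3 to 302 CPM at 6 h (median 236), against 40.8 to 95.2 CPM at 0 h (median 60.8) (log2 change 1.88 ± 0.13, adjusted p = 3.2e-13). In all 3 the times were separated. MSN2, the partner of MSN4, had 111 to 168 CPM at 6 h (median 143), against 76.9 to 168 CPM at 0 h (median 117) and was not called (log2 change 0.24, adjusted p = 0.084), although it was without 0 h replicate 22 or 6 h replicate 2. ADR1 rose 1.84-fold (adjusted p = 0.0075), and SIP4, a target of Cat8, stayed at 0.244 to 4.54 CPM at 6 h (median 2.81), against 0.0878 to 2.84 CPM at 0 h (median 1.72) and was not called (adjusted p = 0.31). Of the repressors, MIG1 rose (median 184 CPM at 6 h against 93.8 CPM at 0 h, log2 change 0.99, adjusted p = 3.6e-04) and MIG3 fell (median 25.6 CPM at 6 h against 64.8 CPM at 0 h, log2 change -1.28, adjusted p = 1.2e-05). XBP1, a repressor of stressed and stationary cells, had 20.7 to 97.5 CPM at 6 h (median 49.8), against 0.819 to 8.62 CPM at 0 h (median 4.48) (log2 change 3.46 ± 0.22, adjusted p = 4.5e-14), and USV1, a zinc-finger regulator of non-fermentable growth, 56.7 to 167 CPM at 6 h (median 79.9), against 5.96 to 17.7 CPM at 0 h (median 9.03) (log2 change 3.25 ± 0.19, adjusted p = 1.4e-14).

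The machinery that makes ribosomes fell broadly and by small amounts. Of 166 measured ribosome biogenesis genes 0 rose and 97 fell, with a median log2 change of -0.48 and 0 of at least 2-fold, and the list took 3.28 to 5.05% of counts at 6 h (median 3.86%), against 3.79 to 5.84% at 0 h (median 4.92%). These ranges overlapped. REX4, a putative exonuclease of rRNA processing, had 28.0 to 58.2 CPM at 6 h (median 45.3), against 57.4 to 126 CPM at 0 h (median 88.4) (log2 change -0.99 ± 0.14, adjusted p = 1.0e-06), MAK11, a factor of the large subunit, 86.6 to 139.6 CPM at 6 h (median 111), against 138 to 196 CPM at 0 h (median 171) (log2 change -0.64 ± 0.09, adjusted p = 8.7e-07), and NOP7, another such factor, 363 to 695 CPM at 6 h (median 442), against 589 to 968 CPM at 0 h (median 723) (log2 change -0.65 ± 0.12, adjusted p = 4.3e-05). In NOP7, 5 of 6 libraries at 6 h were below all 0 h libraries. Of 39 genes for RNA polymerases I and III 14 fell and 4 rose (median -0.26). The falls included RPB10, shared by all nuclear polymerases (median 61.5 CPM at 6 h against 104 CPM at 0 h, log2 change -0.74, no overlap), and RPC40, shared by polymerases I and III (median 223 CPM at 6 h against 369 CPM at 0 h, log2 change -0.65).

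The PAC letters GATGAG and the RRPE letters AAAATTTT, known from promoters of these genes, were in the window of 149 of the 166 genes (89.8%, against 20.2% of all tested genes) and of 123 (74.1%, against 9.03%). Among the 1002 fallen genes of any function the shares were 31.2% for PAC and 23.4% for RRPE, against 14.4% and 2.78% among the 1401 that rose. At changes of at least 2-fold they were 21.0% and 7.56% among the falls, near or below the shares of all tested genes, and 13.3% and 2.82% among the rises. NOP7 (YGR103W, chromosome VII, 695417 to 697234) is shown because its promoter holds 3 PAC and 2 RRPE matches within a short stretch, and it was chosen for them. RPT5 and RPN7, proteasome genes described next, each hold 1 copy of GGTGGCAAA, the sequence of the factor Rpn4. Capitals mark these matches.
NOP7 (chrVII:695266-695330, plus strand, upstream of the gene): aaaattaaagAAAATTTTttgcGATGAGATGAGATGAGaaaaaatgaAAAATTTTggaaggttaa
RPT5 (chrXV:544855-544883, plus strand, upstream of the gene): gccaatatgtGGTGGCAAAaatgaattaa
RPN7 (chrXVI:742290-742318, plus strand, upstream of the gene): ataagttaagTTTGCCACCcattgaggat

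Genes of translation also fell in large part. Translation factors gave 26 falls and 1 rise among 42 measured genes (median -0.43), including GCD1 and GCN3, subunits of the exchange factor eIF2B, with 135 to 230.2 CPM at 6 h (median 170.4), against 219 to 375 CPM at 0 h (median 291) for GCD1 (log2 change -0.70 ± 0.11, adjusted p = 1.1e-05) and 73.3 to 111 CPM at 6 h (median 86.6), against 103 to 153 CPM at 0 h (median 125) for GCN3 (log2 change -0.48 ± 0.08, adjusted p = 2.8e-05). YEF3, elongation factor 3, had 5115 to 10760.2 CPM at 6 h (median 7431), against 5817 to 15685 CPM at 0 h (median 10665) and did not pass the test (adjusted p = 0.073), though it did without 6 h replicate 1 or 6 or 0 h replicate 8. For tRNA synthetases 19 of 24 fell and 0 rose (median -0.41), FRS1, a subunit for phenylalanine, with 563 to 679.6 CPM at 6 h (median 606), against 738 to 915 CPM at 0 h (median 818) (log2 change -0.42 ± 0.07, adjusted p = 5.0e-06). That list also holds CYS4, an enzyme of sulfur amino acids. For tRNA modification 25 of 50 fell and 2 rose (median -0.31), TYW1, of wybutosine synthesis, among them (median 201.3 CPM at 6 h against 303 CPM at 0 h, log2 change -0.56).

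Of 41 proteasome genes 27 fell and 1 rose (median -0.47), and the list took 0.749 to 0.898% of counts at 6 h (median 0.838%), against 0.934 to 1.16% at 0 h (median 1.04%). RPT5, an ATPase of the regulatory particle (YOR117W, chromosome XV, 545029 to 546333), had 216, 224, 215, 218, 211 and 189 CPM in replicates 1 to 6 at 6 h, against 264 to 369 CPM at 0 h (median 306) (log2 change -0.56 ± 0.07, adjusted p = 6.1e-08). RPN7, a subunit of its lid, had 128 to 184 CPM at 6 h (median 159.9), against 205 to 261.1 CPM at 0 h (median 228) (log2 change -0.54 ± 0.07, adjusted p = 2.5e-07). Both were below every 0 h library in all 6. The Rpn4 sequence was in the window of 27 of the 41 genes (65.9%) and of 1.27% of all tested genes. The chaperonin and prefoldin, which fold actin and tubulin, fell in 12 of 14 members with 0 rises (median -0.49). CCT3 had 276 to 332 CPM at 6 h (median 284), against 395 to 591 CPM at 0 h (median 463) (log2 change -0.70 ± 0.09, adjusted p = 8.7e-08) and CCT7 273 to 342 CPM at 6 h (median 294), against 402 to 513 CPM at 0 h (median 452) (log2 change -0.59 ± 0.06, adjusted p = 3.7e-09), without overlap. These lists changed by less than 2-fold in nearly all members, with 0 falls beyond that over the lists of ribosome biogenesis, translation factors, synthetases, proteasome and chaperonin.

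Sterol synthesis fell without a rise. Of 28 genes of the ergosterol pathway 22 fell and 0 rose (median -0.48). ERG25, the C-4 sterol methyl oxidase, had 196 to 308 CPM at 6 h (median 247), against 356 to 573 CPM at 0 h (median 457) (log2 change -0.92 ± 0.10, adjusted p = 5.5e-09), and MVD1, of the mevalonate steps, 106 to 157 CPM at 6 h (median 142), against 166 to 297 CPM at 0 h (median 233) (log2 change -0.76 ± 0.10, adjusted p = 2.7e-07). In both, all 6 h libraries were below all 0 h libraries. Among 38 genes of fatty acid and phospholipid synthesis 10 fell and 6 rose (26.3% and 15.8%). Of 24 for sphingolipids 1 fell and 6 rose (4.17% and 25%), where all tested genes gave 17.5% and 23.3%.

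In the zinc regulon 8 of 13 fell and 0 rose (median -0.38). ZRT1, the high-affinity zinc transporter (YGL255W, chromosome VII, 20978 to 22108), had 63.3, 82.1, 80.8, 66.8, 50.9 and 78.5 CPM in replicates 1 to 6 at 6 h, against 90.3 to 193 CPM at 0 h (median 159) (log2 change -1.14 ± 0.13, adjusted p = 3.5e-08), and ZRC1, which loads zinc into the vacuole, 171 to 252 CPM at 6 h (median 220.1), against 276 to 379.6 CPM at 0 h (median 326) (log2 change -0.57 ± 0.07, adjusted p = 1.5e-07). For iron and copper 11 of 39 fell and 6 rose (28.2% and 15.4%), where 17.5% of all tested genes fell and 23.3% rose. FRE4, a ferric reductase (median 8.15 CPM at 6 h against 21.1 CPM at 0 h, log2 change -1.32), and ENB1, a siderophore transporter (median 72.1 CPM at 6 h against 157 CPM at 0 h, log2 change -1.18), were below every 0 h library. In the phosphate regulon, a list that also holds the glycerol phosphatase GPP2, 8 of 30 fell and 4 rose (26.7% and 13.3%). The falls numbered 4 without 6 h replicate 1 and 5 without replicate 4 or 5. PHO12, a secreted acid phosphatase, had 3.56 to 8.39 CPM at 6 h (median 4.64), against 7.23 to 45.1 CPM at 0 h (median 18.0) (log2 change -1.95 ± 0.39, adjusted p = 1.5e-04), and its 99.7% identical neighbour in sequence, PHO11, fell as well (median 3.44 CPM at 6 h against 9.10 CPM at 0 h, log2 change -1.21).

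The list of sulfur amino acids and one-carbon units gave 10 rises and 14 falls of 46 (median -0.00). Its rises were led by the glycine cleavage system, which turns glycine into a one-carbon unit. GCV2 (YMR189W, chromosome XIII, 637500 to 640604) had 595, 344, 359.8, 349, 460 and 599 CPM in replicates 1 to 6 at 6 h, against 41.2 to 116 CPM at 0 h (median 56.6) (log2 change 2.87 ± 0.15, adjusted p = 5.9e-16), GCV1 348 to 516 CPM at 6 h (median 412), against 50.9 to 165 CPM at 0 h (median 74.8) (log2 change 2.36 ± 0.16, adjusted p = 1.4e-13), and GCV3 medians of 270.2 CPM at 6 h and 84.4 CPM at 0 h (log2 change 1.92 ± 0.26, adjusted p = 5.5e-07). GCV1 and GCV2 were separated between the times. SHM2, the cytosolic serine hydroxymethyltransferase (YLR058C, chromosome XII, 257992 to 259401), had 3323, 3498, 2651, 3108, 2507 and 3618 CPM in replicates 1 to 6 at 6 h, against 579.8 to 1655 CPM at 0 h (median 793) (log2 change 1.83 ± 0.15, adjusted p = 2.4e-11), also without overlap. MTD1, a folate dehydrogenase counted with purine synthesis, rose 2.83-fold (adjusted p = 5.6e-06). The falls included SAM2, which makes S-adenosylmethionine (median 81.9 CPM at 6 h against 186 CPM at 0 h, log2 change -1.16), and MMP1, the S-methylmethionine permease (median 20.7 CPM at 6 h against 62.1 CPM at 0 h, log2 change -1.48), both separated. Upstream of GCV2 stand 4 copies of TGACTC, the sequence of the factor Gcn4, on either strand, marked by capitals and shown because this separated rise came with repeated matches. In the window from 250 bases before to 50 after the annotated start, the sequence was in 11.9% of the genes that rose at least 2-fold. It was in 8.33% of all tested genes. Of the GCV2 matches, which begin 291, 257, 251 and 239 bases before the start, only that at 239 lies in this window.
GCV2 (chrXIII:637199-637276, plus strand, upstream of the gene): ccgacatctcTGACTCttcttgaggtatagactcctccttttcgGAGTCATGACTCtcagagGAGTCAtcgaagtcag

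Purine synthesis consumes one-carbon units. Of 45 genes of purine and pyrimidine synthesis 16 rose and 15 fell. ADE17, which adds the last carbon of the purine ring, had 2219, 1216, 1899, 1981, 1871 and 2207 CPM in replicates 1 to 6 at 6 h, against 247 to 1075 CPM at 0 h (median 359.6) (log2 change 2.21 ± 0.19, adjusted p = 4.6e-11), with no overlap. ADE1 rose 2.51-fold and ADE2 2.30-fold. IMD2, an IMP dehydrogenase with a copy of 96.7% identity, fell (median 135 CPM at 6 h against 340.2 CPM at 0 h, log2 change -1.26), and FCY21, of the purine and cytosine permease family, fell with 11.2 to 16.7 CPM at 6 h (median 15.0), against 32.8 to 74.2 CPM at 0 h (median 49.9) (log2 change -1.83 ± 0.15, adjusted p = 3.0e-11). In vitamin synthesis 17 of 46 genes rose and 5 fell, and the route from tryptophan to NAD was among the rises. BNA2, its first enzyme, had 16.7 to 58.9 CPM at 6 h (median 31.4), against 3.74 to 10.0 CPM at 0 h (median 5.97) (log2 change 2.50 ± 0.16, adjusted p = 4.5e-14), and BNA5, kynureninase, 92.3 to 122 CPM at 6 h (median 109), against 42.3 to 84.9 CPM at 0 h (median 54.4) (log2 change 0.91 ± 0.10, adjusted p = 1.2e-08). Neither overlapped between the times, and BNA1, BNA6 and BNA4 rose with log2 changes of 1.10, 1.04 and 0.90.

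Branched-chain and aromatic amino acid genes fell in 14 of 35 members, with 3 rises (median -0.21). LEU1, of leucine synthesis, had 629, 339, 487, 513, 638 and 577 CPM in replicates 1 to 6 at 6 h, against 941 to 1814 CPM at 0 h (median 1368) (log2 change -1.40 ± 0.12, adjusted p = 9.3e-11), and OAC1, a mitochondrial carrier linked to that pathway, 75.3 to 154 CPM at 6 h (median 122), against 154 to 315 CPM at 0 h (median 270.4) (log2 change -1.19 ± 0.12, adjusted p = 1.0e-09). Both were separated. The strain lacks LEU2, the next enzyme after LEU1. The rises were LEU4, of leucine synthesis (log2 change 0.45), ARO9 with 51.8 to 81.4 CPM at 6 h (median 56.3), against 6.48 to 24.9 CPM at 0 h (median 13.0) (log2 change 2.16 ± 0.17, adjusted p = 3.9e-12) and ARO10 with 23.0 to 52.9 CPM at 6 h (median 36.3), against 1.48 to 10.7 CPM at 0 h (median 3.79) (log2 change 3.14 ± 0.23, adjusted p = 1.0e-12). ARO9 and ARO10 are the transaminase and decarboxylase that break down aromatic amino acids. For arginine, lysine, histidine and glutamate 12 of 34 rose and 5 fell (median 0.28), HIS4 by 2.23-fold and HIS5 by 1.79-fold. AGP1, a broad amino acid permease, had 401.2 to 522 CPM at 6 h (median 493), against 89.6 to 240.9 CPM at 0 h (median 147) (log2 change 1.66 ± 0.14, adjusted p = 2.5e-11), and GAP1, the general permease of nitrogen limitation, 33.7 to 51.7 CPM at 6 h (median 42.3), against 16.9 to 29.5 CPM at 0 h (median 22.9) (log2 change 0.83 ± 0.10, adjusted p = 4.3e-08).

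Some isoforms of glycerol and pentose phosphate enzymes changed in opposite directions. In glycerol metabolism, 4 of 10 rose and 3 fell (40% and 30%), where all tested genes gave 23.3% and 17.5%. GPD1 and GPP2, the forms of osmotic and other stress, rose 3.05-fold and 4.22-fold, whereas their partners GPD2 and GPP1 fell (log2 change -0.65 and -0.84). GPD1 had 696 to 2491 CPM at 6 h (median 1505), against 219 to 933 CPM at 0 h (median 458) (log2 change 1.61 ± 0.23, adjusted p = 1.5e-06), and GPP1 495 to 1407 CPM at 6 h (median 901), against 1309.6 to 2332 CPM at 0 h (median 1612) (log2 change -0.84 ± 0.16, adjusted p = 5.5e-05). In the pentose phosphate pathway 4 of 13 rose and 4 fell (30.8% each). GND2, the minor form of 6-phosphogluconate dehydrogenase, rose 2.73-fold and GND1, the major form, fell (log2 change -0.57). NQM1, a transaldolase, rose 2.95-fold and TKL1, a transketolase, fell (log2 change -0.57). GND2 had 9.73 to 22.6 CPM at 6 h (median 13.9), against 3.20 to 8.55 CPM at 0 h (median 5.26) (log2 change 1.45 ± 0.15, adjusted p = 4.5e-09).

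Of 38 autophagy genes 18 rose and 2 fell (median 0.35), and of 19 vacuolar hydrolases and inhibitors 11 rose and 0 fell (median 0.42). ATG39, a receptor for autophagy of the nuclear envelope, had 25.1, 21.2, 17.9, 22.9, 35.8 and 16.5 CPM in replicates 1 to 6 at 6 h, against 1.20 to 5.31 CPM at 0 h (median 2.12) (log2 change 3.35 ± 0.20, adjusted p = 1.0e-14). AMS1, the vacuolar α-mannosidase, had 27.2 to 65.8 CPM at 6 h (median 45.0), against 3.86 to 14.8 CPM at 0 h (median 8.81) (log2 change 2.38 ± 0.17, adjusted p = 7.0e-13), and ATG34, a receptor for it, 15.0 to 25.9 CPM at 6 h (median 19.7), against 5.79 to 12.8 CPM at 0 h (median 8.59) (log2 change 1.15 ± 0.13, adjusted p = 9.2e-09). ATG39, AMS1 and ATG34 were separated. APE1, an aminopeptidase delivered by the same route, rose 3.16-fold with 5 of 6 libraries at 6 h above every 0 h library. In nitrogen catabolism 17 of 27 rose and 2 fell (median 0.52). OPT2, an oligopeptide transporter, rose with 5.17 to 53.8 CPM at 6 h (median 29.4), against 0.789 to 5.52 CPM at 0 h (median 2.55) (log2 change 3.51 ± 0.27, adjusted p = 3.8e-12).

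Cell wall genes gave 18 rises and 17 falls of 76, close to the 23.3% and 17.5% of all tested genes. SED1, an abundant wall glycoprotein, had 2817 to 5186 CPM at 6 h (median 4339), against 1436 to 2656 CPM at 0 h (median 2056) (log2 change 1.05 ± 0.11, adjusted p = 4.0e-09). UTR2, a chitin cross-linking enzyme of growing walls, had 126 to 254 CPM at 6 h (median 236), against 452 to 769 CPM at 0 h (median 641) (log2 change -1.62 ± 0.13, adjusted p = 9.0e-12), and SLT2, the kinase of the wall integrity pathway, 55.3 to 96.5 CPM at 6 h (median 66.8), against 114 to 200.4 CPM at 0 h (median 157) (log2 change -1.18 ± 0.12, adjusted p = 1.6e-09). All 3 were separated. Outside that list, PRM7 and BSC1, neighbours whose transcripts can read through into each other, fell (median 134 CPM at 6 h against 754 CPM at 0 h, log2 change -2.51 for PRM7, and median 34.0 CPM at 6 h against 231 CPM at 0 h, log2 change -2.56 for BSC1), and PRM1, of cell fusion, rose 2.46-fold without overlap (adjusted p = 6.6e-09).

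Among 40 cyclins and cell cycle regulators 13 rose (32.5%) and 0 fell (median log2 change 0.16). Among 24 genes of daughter separation and cytokinesis 9 rose (37.5%) and 0 fell (median 0.13). Of all tested genes 23.3% rose and 17.5% fell. CLB1, a mitotic cyclin, had 153 to 311 CPM at 6 h (median 239), against 68.6 to 137 CPM at 0 h (median 106) (log2 change 1.12 ± 0.12, adjusted p = 4.1e-09), with no overlap, and PCL2, a cyclin of the Pho85 kinase, 24.3 to 72.2 CPM at 6 h (median 66.5), against 17.6 to 48.4 CPM at 0 h (median 28.7) (log2 change 1.03 ± 0.15, adjusted p = 1.7e-06). Of 11 histone genes 4 rose (36.4%) and 0 fell. HHF1, a histone H4 gene with a copy of 97.4% identity, had 397 to 1188 CPM at 6 h (median 502), against 223 to 797 CPM at 0 h (median 336) (log2 change 0.61 ± 0.22, adjusted p = 0.024), and without 6 h replicate 2 its log2 change was 0.31 with an adjusted p of 0.25. Of 53 genes of DNA replication 19 rose and 8 fell (35.9% and 15.1%, median -0.003), the falls numbering 5 without 6 h replicate 4 or 5. CTF4, which links helicase and polymerase, rose (median 74.96 CPM at 6 h against 44.4 CPM at 0 h, log2 change 0.72).

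**Figure D3:**
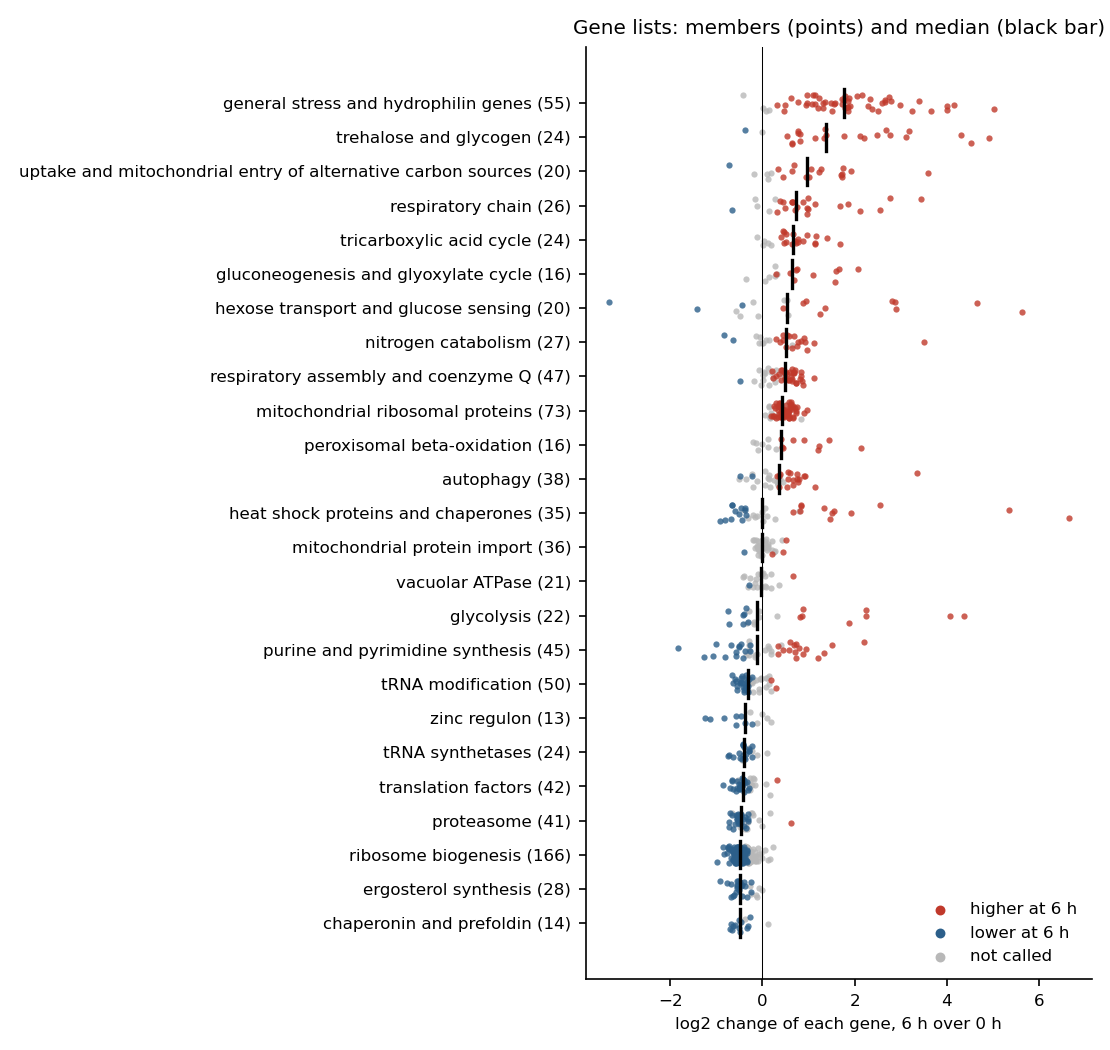
Log2 change (6 h over 0 h) on the horizontal axis for each measured member of selected gene lists, with the number of members beside the list's name, a black bar at its median, and members in red where higher, blue where lower and grey where not called. The lists are sorted by median, with general stress (51 of 55 higher) and trehalose and glycogen genes (22 of 24) at the top, and ribosome biogenesis (97 of 166 lower), ergosterol (22 of 28) and chaperonin genes (12 of 14) at the bottom.

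Some parts of the cell were called at or below the share of all tested genes in both directions. Of 55 genes of vesicle coats and traffic 5 rose and 2 fell, of 21 for the vacuolar ATPase 1 and 1, of 41 of the ubiquitin system 7 and 6, and of 61 for chromatin and silencing 9 and 2. For chromatin the rises numbered 14 without 6 h replicate 2. Single genes still moved, such as EMP46, a cargo receptor of vesicles (median 17.5 CPM at 6 h against 7.42 CPM at 0 h, log2 change 1.13), and RAV1, an assembly factor of the vacuolar ATPase (median 97.8 CPM at 6 h against 64.0 CPM at 0 h, log2 change 0.66). In nuclear transport 2 of 52 rose and 10 fell (3.85% and 19.2%), so that its falls lay slightly above the 17.5% of all tested genes. GSP2, the minor form of the Ran GTPase, was 1 of the rises (median 57.6 CPM at 6 h against 17.6 CPM at 0 h, log2 change 1.57).

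The median had the same sign in both kinds of library in 51 of the 59 lists. For general stress genes the median log2 change was 1.31 within steep and 1.83 within flat libraries, for trehalose and glycogen 1.38 within steep and 1.61 within flat libraries, and for the respiratory chain 0.64 within steep and 0.77 within flat libraries. For ribosome biogenesis it was -0.50 within steep and -0.39 within flat libraries, for the proteasome -0.51 within steep and -0.44 within flat libraries, and for ergosterol synthesis -0.47 within steep and -0.54 within flat libraries. The list of heat shock proteins and chaperones, whose overall median was near 0, gave -0.29 within steep and 0.30 within flat libraries, and the seripauperins and anaerobic genes -0.02 within steep and 0.57 within flat libraries. The other 6 lists of opposite sign, for glycerol metabolism, mitochondrial protein import, sphingolipids, purines and pyrimidines, DNA replication and the cell wall, had medians within 0.15 of 0 in both kinds.

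Of 183 genes compared in this way, 11 had log2 changes at least 1 apart in the 2 kinds. The rise was larger within flat libraries for STL1 (2.63 within steep, 4.79 within flat), POT1 (1.35 and 2.97), HXT7 (4.83 and 6.18), HSP42 (1.31 and 2.56), SSA4 (2.00 and 3.17), MPC3 (3.41 and 4.55) and HXT6 (2.49 and 3.56), as for HSP12 above. It was larger within steep libraries for OPT2 (3.74 and 2.39). The snoRNA snR13 fell in both (-1.40 and -2.53). SIP4, which was not called, had opposite signs (0.74 and -0.93). The differences between the kinds were not tested.

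The libraries at 2 h and 4 h place these changes in time. They were scaled with the others and no test was made on them here. The mix of libraries differed between the times, with 7 of 24 flat at 0 h, 1 of 6 at 2 h, 0 of 6 at 4 h and 2 of 6 at 6 h. Values are given in the order 0, 2, 4 and 6 h. As the median share of all counts, the general stress genes took 0.195, 0.195, 0.303 and 0.548%, and the storage carbohydrate genes 0.168, 0.167, 0.366 and 0.480%. Both lists thus lay at the same level at 2 h as at 0 h and were higher at 4 h. The respiratory chain took 0.178, 0.177, 0.203 and 0.276%, and the tricarboxylic acid cycle 0.245, 0.248, 0.325 and 0.406%. Ribosome biogenesis took 4.92, 5.27, 4.14 and 3.86%, and translation factors 3.98, 3.92, 3.78 and 3.09%. Over the steep libraries alone ribosome biogenesis took 5.07, 5.28, 4.14 and 3.96%, and translation factors 4.22, 4.05, 3.78 and 3.37%. The 4 h libraries ranged between 2.96 and 5.59% for ribosome biogenesis, which overlapped the range at 0 h. Mitochondrial ribosomal genes took 0.418, 0.441, 0.469 and 0.602%.

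**Figure D4:**
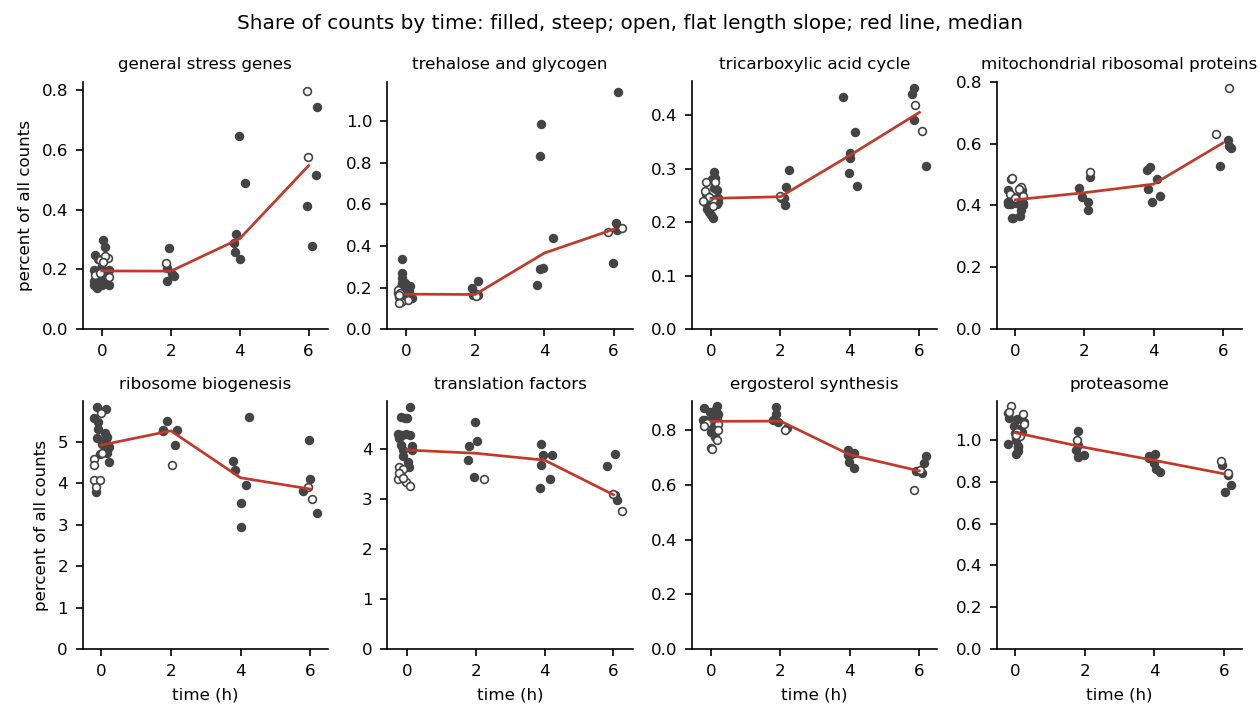
Percent of all counts taken by selected gene lists in each library at 0, 2, 4 and 6 h, with a line at the median of each time and open markers for flat libraries. The general stress genes had medians of 0.195, 0.195, 0.303 and 0.548% from 0 to 6 h, and ribosome biogenesis 4.92, 5.27, 4.14 and 3.86%.

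Single genes differed in when they moved, with means again in the order 0, 2, 4 and 6 h. HXT1 averaged 1566, 1632, 834 and 154 CPM, and HXT2 1396, 1419, 881 and 519.9 CPM, so that both means at 2 h lay close to those at 0 h. HXT4 averaged 160.5, 413, 1467 and 3989 CPM. MTH1 followed with 48.2, 73.4, 173 and 333 CPM. HXK1 had 99.6, 154, 665 and 2033 CPM and TDH1 156, 147, 982 and 2593 CPM. Of the regulators, HAP4 was as high at 4 h as at 6 h (123, 222, 553 and 512 CPM), whereas CAT8 was highest at 6 h (8.56, 15.1, 19.4 and 39.9 CPM). HSP12 averaged 2.54, 7.53, 24.1 and 260.4 CPM and HXT7 3.60, 6.10, 20.5 and 179.7 CPM, both highest at 6 h. The 6 libraries at 4 h were all steep, and flat libraries weigh on these 6 h means. At 6 h HSP12 had 66.8 to 108 CPM in the steep libraries but 459.5 and 740.3 CPM in the flat ones. HXT7 had 656.5 CPM in the flat replicate 2 and 39.6 to 120.7 CPM in the others. GLC3 averaged 11.4, 9.59, 152 and 258 CPM, and GSY1 58.6, 25.04, 455 and 371 CPM. In one-carbon and purine synthesis, GCV2 averaged 62.8, 73.2, 192 and 455 CPM and ADE17 418, 385, 1476 and 1914 CPM. ADE17 was thus close to its 6 h level at 4 h. ZRT1 averaged 157, 163, 91.3 and 71.01 CPM.

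Several of the largest changes were in genes of little known function. ISF1, a serine-rich protein linked to mitochondrial RNA, had 30.0 to 106 CPM at 6 h (median 35.0), against 0.355 to 4.49 CPM at 0 h (median 2.53) (log2 change 4.19 ± 0.25, adjusted p = 1.4e-14). YMR206W, uncharacterised, had 3.63 to 23.8 CPM at 6 h (median 11.1), against 0 to 1.20 CPM at 0 h (median 0.526) (log2 change 4.38 ± 0.31, adjusted p = 6.1e-13). Both were separated, with all 6 h libraries above. Of the falls, YOL014W had 1.84 to 5.34 CPM at 6 h (median 4.32), against 13.5 to 51.1 CPM at 0 h (median 24.2) (log2 change -2.74 ± 0.26, adjusted p = 6.3e-10), and YGL039W, an aldehyde reductase, 28.7 to 43.0 CPM at 6 h (median 36.8), against 68.8 to 128 CPM at 0 h (median 103) (log2 change -1.52 ± 0.11, adjusted p = 8.2e-13). In both, every 6 h library was below every 0 h library. YBR238C, linked to mitochondrial gene expression, fell with 48.6 to 239 CPM at 6 h (median 165), against 168 to 641 CPM at 0 h (median 449) (log2 change -1.50 ± 0.27, adjusted p = 3.3e-05). TDA6, of unknown function, fell with 10.7 to 26.6 CPM at 6 h (median 14.3), against 13.9 to 147 CPM at 0 h (median 39.2) (adjusted p = 0.0028), and YDL241W fell as well (median 4.21 CPM at 6 h against 14.1 CPM at 0 h, log2 change -1.69).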

How the data were processed

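RNA from BY4742 cultures was sequenced as 42 poly(A)-selected, strand-specific TruSeq libraries, 6 at 6 h and 24 at 0 h being compared here. The deposited values are raw read counts per gene that the authors made, per the file headers, with featureCounts 2.0.3 over whole genes of the R64-1-1 Ensembl annotation (strand-specific, reads counted singly, multi-mapping and multi-overlapping reads not counted), after alignment with STAR per the labels. The methods name ComBat-seq, applied because poly(A) selection differed in efficiency between batches. The headers say nothing of it, and the counts fitted here were the deposited ones without further adjustment. Total gene counts were 8377258 to 31908031 at 6 h and 5382002 to 28221337 at 0 h.

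Counts were fitted with edgeR 4.0.16 (R 4.3.3, TMM, filterByExpr, glmQLFit, glmQLFTest) with time as the only term, adjusted over the 6163 genes kept. TMM factors were 0.936 to 1.17 at 6 h and 0.808 to 1.10 at 0 h. No 2 libraries of a group agreed within sampling noise (χ2 per degree of freedom at least 37.3 at 6 h and 9.89 at 0 h). Genes with a copy of at least 90% identity can lose reads, 13 of the rises and 9 of the falls of at least 2-fold. The 59 lists, the members and the motifs were chosen with earlier results of these data known, and lists were counted, not tested. Named genes were the 15 largest rises and 15 largest falls with at least 10 CPM at the higher time, the 2 rises and 2 falls of lowest adjusted p in each list with at least 5 tested members, the 5 genes with the most CPM gained and the 5 with the most lost, and growth-state genes (222 in all). Others were chosen after their values were seen: HXT3, HXT5, HXT6, GLK1, MTH1, SNF3, RGT2, ENO1, ADH1, SFC1, STL1, POT1, TSL1, GSY1, GSY2, PGM2, TPS1, TPS2, NTH1, YNL194C, HSP42, SSA1, SSA2, SSA4, HSP82, HSP104, CYT1, COX5A, ATP1, CAT8, HAP4, MSN4, MSN2, ADR1, SIP4, MIG1, NOP7, PHO11, GCV3, ADE1, ADE2, MTD1, GND1, and HXT13, HXT14, GAL2, LEU4, BNA1, BNA4 and BNA6 where listed values are given. Sequences came from the RefSeq R64 genome, in which 6038 of 6047 matched genes have the same start and end. Alternatives were DESeq2 1.42.0, library totals, other filters, exon counts, all libraries, subsets of libraries, replicate blocks and left-out libraries. Title numbers were not taken to pair libraries. Culture numbers in the file names gave a hint of pairing and were used as a block only among the alternatives.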

Additional observations from a re-analysis of the deposited data

Results flagged for a closer look

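In each group of 6 libraries at 6 h, the highest or lowest value was set against the nearest of the others by Dixon's ratio and its 95% limit for 6 samples. Of 242 values looked at, the genes described and the shares of the gene lists, 25 passed that limit. Chance flags about 1 group in 20, and values of genes that move together are not independent, so the number cannot be read against that share.

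Replicate 2 at 6 h, a flat library, accounted for 15 of them. It was far above the other 5 libraries in genes of carbon uptake and respiration, namely HXT7 at 656.5 CPM (others 39.6 to 120.7), MLS1 at 9.252 CPM (others 3.71 to 4.85), IDP2 at 60.75 CPM (others 20.9 to 32.3), and likewise in SFC1 at 3.469 CPM (others 0.614 to 1.61), STL1 at 18.87 CPM (others 1.64 to 6.49), POX1 at 4.383 CPM (others 2.53 to 2.90). The same library stood high in TMA10, a general stress gene, and in the Hsp70 genes SSA1 and SSA4, with TMA10 at 449.1 CPM (others 39.0 to 160.4), SSA1 at 3021.9 CPM (others 901 to 1658), SSA4 at 880.2 CPM (others 196 to 297). In mitochondrial and heme genes it was high in LSC2 at 405.3 CPM (others 170.4 to 237), COX5B at 215.5 CPM (others 51.8 to 108), HEM13 at 195.8 CPM (others 86.3 to 116), and it was high in the histone gene HHF1 at 1187.5 CPM (others 397 to 659). It was low in ADE17 at 1215.8 CPM (others 1871 to 2219), PCL2 at 24.29 CPM (others 56.3 to 72.2). All of these genes other than HHF1 kept their call without replicate 2, and HEM13 in that library was below the median at 0 h but not below every 0 h library.

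Replicate 5 at 6 h, a steep library, accounted for 7. Trehalose and glycogen genes took 1.138% of its counts (others 0.317 to 0.510%). Single genes of that list were GLC3 at 692.8 CPM (others 94.7 to 257), TSL1 at 851.1 CPM (others 79.8 to 309), GSY1 at 972.3 CPM (others 114 to 422), and GSY2 at 742.4 CPM (others 161.4 to 371), TPS2 at 1513.3 CPM (others 340.2 to 750.3). ISF1 was at 105.6 CPM there (others 30.0 to 41.7).

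Replicate 6 held the highest TYW1, 265 CPM (others 173 to 204). Replicate 3 held the highest values of 2 snoRNAs, snR51 at 10.51 CPM (others 0.791 to 3.46) and snR13 at 43.27 CPM (others 3.47 to 15.4). Whether the culture, its density at harvest or the library preparation set these libraries apart was not tested.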

How the results depend on the processing

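The rises and falls were counted again under other choices. For rises, 1401 in the reported analysis, the count stayed within 1.5 times of that under library totals (1732), DESeq2 (1334), at least 75 counts in every library (1110), every gene with at least 1 count (1431), all 42 libraries in the fit (1516), the length-slope set as a term (1839), steep libraries alone (1729) and exon counts (1405). For falls, 1002 in the reported analysis, it was 1196 with DESeq2, 815 with the 75-count minimum, 997 with every gene, 1050 with all 42 libraries, 1451 in steep libraries and 1001 with exon counts, but 645 with library totals and 1520 with the length-slope set as a term. Flat libraries alone, 2 at 6 h and 7 at 0 h, gave 813 rises, 477 falls and 636 called list members, where the reported analysis had 1074. The 6 libraries at 0 h with 30C in the header gave 592 rises, 364 falls and 507 list members. These last 2 settings hold fewer libraries. Direction was compared between settings for the 183 genes given with values in the text, and not for the other genes named by the rule. None of the 183 had opposite signs between the reported analysis and a setting where either of these called it. SIP4, chosen otherwise and not called, changed sign within flat libraries (log2 change -0.93, against 0.53 in the reported analysis).

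Titles number the replicates from 1 at both times. Deviations of same-numbered libraries had correlations between -0.525 and 0.651, with the own number best in 1 of 6. The numbers were not taken to pair the libraries. With that number as a replicate block, over 12 libraries, 494 genes rose and 243 fell and 367 list members were called, and over the same 12 libraries without the block, a comparison added after seeing the data, 739 rose, 438 fell and 576 list members were called. Culture numbers in the file names gave correlations between -0.384 and 0.781 with the own number best in 5 of 6, a hint from the data. As a block, these numbers gave 1149 rises, 1036 falls and 1049 list members. Over the same libraries without it there were 592, 364 and 507. In both numberings every negative correlation joined a flat with a steep library. For culture 6, at 0.781, the 0 h library was the only flat library among those marked 30C. In these pairs the check cannot tell a shared culture from a shared kind of library.

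Leaving out each library in turn gave 1228 to 1384 rises (6 h libraries) or 1357 to 1450 (0 h), 837 to 1118 or 973 to 1021 falls, and 943 to 1077 or 1049 to 1098 list members. Of the 222 genes named by the rule, 219 were called, 213 to 215 without a 6 h library, 215 to 219 without a 0 h library and as few as 147 under the other settings, the title-number block. Calls that a single library decided are given beside the genes. The share of counts was higher at 6 h in 35 of 59 lists, 36 within steep and 41 within flat libraries. The STRE share of genes that rose at least 2-fold, 41.53%, was 30.91% for genes risen by any amount, and, in alternatives added after seeing the data, 65.25% over 500 bases before the start (33.96% of all tested genes there) and 43.33% for protein-coding genes alone. The minimum of 75 counts removed most genes near 0 CPM at 0 h from the test, so 51 risen general stress genes became 21. Depth limits the genes of a few CPM, such as SFC1, SIP4 and PEX18, whose lowest libraries held few counts.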

Other observations

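Further groups of genes were counted in the same test. For redox defence 10 rose and 5 fell of 40 (25% and 12.5%), near the 23.3% and 17.5% of all tested genes. PRX1, the mitochondrial peroxiredoxin, rose with 72.0 to 254 CPM at 6 h (median 120.9), against 32.2 to 85.0 CPM at 0 h (median 45.8) (log2 change 1.46 ± 0.17, adjusted p = 3.9e-08). MXR1, a methionine sulfoxide reductase, fell with 20.9 to 44.1 CPM at 6 h (median 35.0), against 49.4 to 111 CPM at 0 h (median 68.2) (log2 change -1.03 ± 0.16, adjusted p = 3.4e-06). MXR1 was below every 0 h library in all 6 and PRX1 was not separated. In mRNA decay and P bodies 5 rose and 17 fell of 48, but EDC1, an activator of decapping, rose with 40.8 to 104 CPM at 6 h (median 55.8), against 12.8 to 32.7 CPM at 0 h (median 19.4) (log2 change 1.66 ± 0.17, adjusted p = 3.6e-09), without overlap. In the translocation, glycosylation and folding of proteins in the ER 2 rose and 15 fell of 54. AGP2, which regulates uptake of carnitine and polyamines, rose (median 65.4 CPM at 6 h against 25.4 CPM at 0 h, log2 change 1.37). It was 1 of 4 rises and 5 falls among 24 amino acid permeases (16.7% and 20.8%).

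For mating and pheromone response 13 rose and 8 fell of 47, a list that also holds the sterol gene ERG24, and for meiosis and sporulation 16 rose and 3 fell of 39, where all tested genes gave 23.3% and 17.5%. Of the seripauperins and anaerobic genes 19 of 34 could be tested, with 6 rises and 3 falls. Within 30 kb of a chromosome end, 57 of 293 tested genes rose (19.5%) and 55 fell (18.8%), and 17 (5.80%) and 19 (6.48%) did so at least 2-fold, where all tested genes gave 5.94% and 1.98%. Subtelomeric families share sequence, and reads that map to several places were not counted.

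Of 67 tested snoRNAs outside the intron class 0 rose and 19 fell (median log2 change -0.60). The libraries were poly(A)-selected and mature snoRNAs carry no poly(A) tail, so these counts are a remainder whose size depends on the selection, and its part in the falls was not tested. The lowest were snR51 (log2 change -1.78 ± 0.58, adjusted p = 0.015, -2.41 without 6 h replicate 3), snR13 (log2 change -1.64 ± 0.39, adjusted p = 0.0011, -2.31 without 6 h replicate 3) and snR56 (log2 change -1.63 ± 0.60, adjusted p = 0.029), the last losing its call without 6 h replicate 2, 4 or 6 (adjusted p between 0.059 and 0.071). Of the 119 falls of at least 2-fold, 50 were such RNAs or reading frames that the RefSeq table does not list, and 69 were protein-coding genes.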
